A study of Mus musculus with 6 samples.

Results

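Gabra2 and Wdfy1 are genes whose RNA level is known to vary between inbred mouse strains, and both had higher counts in the retina of Slc6a4-/- mice than in that of WT mice. The 2 genes were taken from a table of 701 genes by their names. They were chosen by their difference between the genotypes in these same libraries, so their levels are given as a description with no test. Every gene of the table had itself passed the authors' selection, a p-value under 0.05 in this contrast.

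RNA-seq was done on the peripheral ventrotemporal (VT) retina, the region that holds the ganglion cells projecting to the same side of the brain. All animals had an optic nerve crush (ONC) at 8 weeks (postnatal day 56), and the retina was collected 24 hours later. There were 3 libraries from WT mice and 3 from Slc6a4-/- mice, a constitutive mutant line that lacks the serotonin transporter SERT in all tissues, and each library came from a pool of 3 VT retinae. Every library is labelled C57BL/6 with no substrain. The study's methods name C57BL/6J for WT mice and the Jackson Laboratory as the source of both WT and mutant mice. They state no substrain for the mutant line. The line of origin and the loss of the transporter therefore share the same groups and cannot be told apart in these libraries. Alleles at either gene were not read, and no uncrushed retina was analysed here.

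Slc6a4 itself, the gene removed in the mutants, had 1516, 1397 and 1548 raw reads in the 3 WT libraries. The Slc6a4-/- libraries held 0, 0 and 3 reads, so every library matched its label. Library totals recovered from the deposited values ranged from 75.31 to 94.02 M reads. All levels below are raw counts divided by a factor per library set by these totals, which ranged from 0.909 to 1.135, and are called scaled counts. After this scaling 397 of the 701 genes were higher in Slc6a4-/- and 304 were lower, and their median log2 difference was 0.30.

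Gabra2 encodes the alpha 2 subunit of the GABA-A receptor, the chloride channel that carries fast inhibition in the brain and the inner retina. The C57BL/6J substrain is known to carry a small deletion in an intron of Gabra2, next to a splice acceptor, which lowers its RNA and protein. Wdfy1 encodes a protein with WD repeats and a FYVE domain, which binds the lipid PI3P on early endosomes and links the adaptor TRIF to the Toll-like receptors TLR3 and TLR4. Its RNA level is known to differ between substrains of C57BL/6.

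Gabra2 (ENSMUSG00000000560) lies on the minus strand of chromosome 5 of GRCm38, from 70957597 to 71095849, and its annotated exons cover 7640 bases. Wdfy1 (ENSMUSG00000073643) lies on the minus strand of chromosome 1, from 79702262 to 79776143, with 6488 exonic bases. Slc6a4 is on chromosome 11, so neither gene lies on the chromosome of the targeted locus. RefSeq's promoter table on GRCm38.p6 matched 1 of the 2 genes. The 250 bases before the start of Gabra2, chr5:71095850-71096099 on the minus strand, are shown as the regulatory sequence at its start, while the known strain deletion lies inside the gene and outside this stretch. Capitals mark the letters GGGCGG and the reverse complement of CCAAT:
Gabra2 promoter: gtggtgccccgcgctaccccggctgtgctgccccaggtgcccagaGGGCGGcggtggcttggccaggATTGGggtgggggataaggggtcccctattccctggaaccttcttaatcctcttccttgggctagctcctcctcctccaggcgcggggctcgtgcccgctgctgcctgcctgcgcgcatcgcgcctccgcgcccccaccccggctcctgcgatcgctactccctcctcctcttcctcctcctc
Of this stretch 70.0% was G or C, and it held 18 CpG dinucleotides. Among 32851 promoters of the same length, 90.8% had a lower share of G and C, and 78.3% had fewer CpG. Counting both strands, GGGCGG stood in 32.7% of these promoters and CCAAT in 33.8%, so neither is rare. TATAAA was searched as well and was not among these letters, and 12.4% of all promoters hold it.

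Gabra2 had 520, 487 and 553 raw reads in WT libraries 1, 2 and 3, and 1177, 1290 and 1082 in Slc6a4-/- libraries 1, 2 and 3. The scaled counts were 572, 507 and 581 in WT and 1037, 1194 and 1104 in Slc6a4-/-. All 3 Slc6a4-/- libraries lay above all 3 WT libraries, with nothing in between. The scaled counts averaged 553 ± 40.4 in WT and 1112 ± 79.0 in Slc6a4-/- (SD, n = 3 per genotype), a ratio of means of 2.01. On the log2 scale, with 1 added to each scaled count, the difference was 1.01 with a standard error of 0.11. Over the 9 pairs of a mutant and a WT library the ratio ran from 1.79 to 2.36.

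Wdfy1 had 1266, 1422 and 1400 raw reads in the WT libraries and 2743, 3392 and 2133 in the Slc6a4-/- libraries. The scaled counts were 1392, 1479 and 1470 in WT and 2416, 3140 and 2177 in Slc6a4-/-. Again no mutant library reached down to a WT library, but the mutant libraries were spread widely and replicate 2 stood well above the others. The scaled counts averaged 1447 ± 47.8 in WT and 2578 ± 502 in Slc6a4-/- (SD, n = 3 per genotype), a ratio of means of 1.78. The log2 difference was 0.82 with a standard error of 0.14, and the ratio over the 9 pairs ran from 1.47 to 2.26. Without Slc6a4-/- replicate 2 the log2 difference of Wdfy1 was 0.66, and that of Gabra2 was 0.95.

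**Figure D1:**
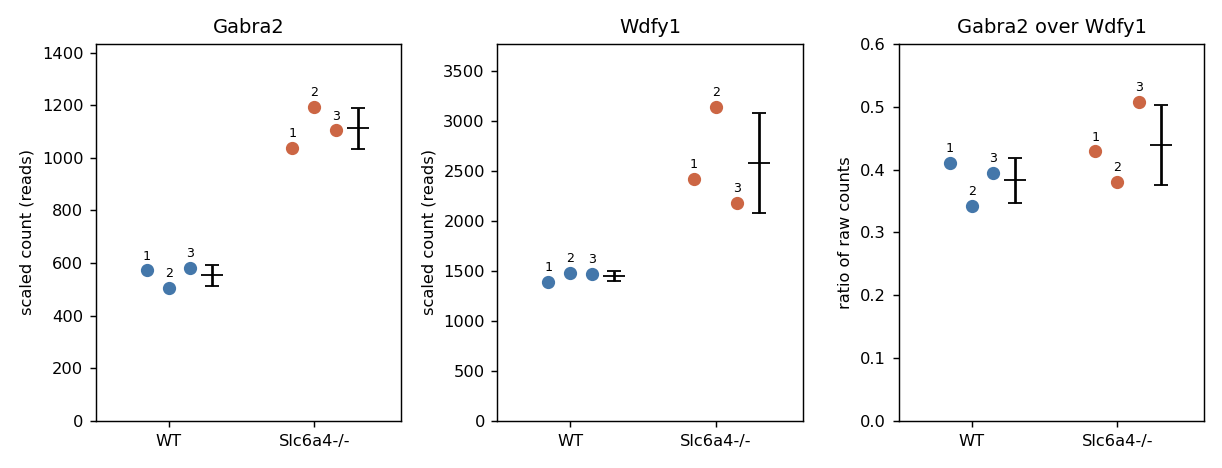
Scaled counts of Gabra2 and Wdfy1 (reads, left and middle) and the ratio of their raw counts (right) in 3 WT and 3 Slc6a4-/- libraries. Points are libraries with their replicate number, and bars are the mean and SD. For Gabra2 the mutant libraries sat between 1037 and 1194 and the WT libraries between 507 and 581, for Wdfy1 between 2177 and 3140 and between 1392 and 1479, and the ratios of the genotypes overlapped.

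Per length, Wdfy1 was the more abundant of the 2 RNAs in both genotypes. In RPKM, reads per kilobase of exon and per M reads, computed from the recovered totals, Gabra2 stood at 0.874 ± 0.064 in WT and 1.76 ± 0.125 in Slc6a4-/- (SD, n = 3 per genotype). The RPKM of Wdfy1 was 2.69 ± 0.089 in WT and 4.80 ± 0.934 in Slc6a4-/- (SD, n = 3 per genotype). By mean scaled count over all 6 libraries Wdfy1 was at place 100 and Gabra2 at place 222 of the 701 genes.

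The spread between libraries was small for Gabra2 in both genotypes and for Wdfy1 in WT. For Gabra2 the coefficient of variation was 7.31% in WT and 7.10% in Slc6a4-/-, where counting error of single reads would give 4.39% and 2.91%. For Wdfy1 it was 3.30% in WT, close to the 2.71% of counting error, and 19.5% in Slc6a4-/-, where counting error would give 1.90%. These counting errors treat each read as independent. They are too low if both reads of a pair were counted, and the counter's settings are not given in the sources used here. The highest library of Wdfy1 exceeded the lowest 1.44-fold within Slc6a4-/- and 1.06-fold within WT. For Gabra2 these ratios were 1.15 in both genotypes.

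How far the libraries fell into 2 levels was described by the gap between the genotypes, divided by the larger of the ranges within them. Gabra2 had a gap of 0.84 on the log2 scale between its lowest mutant and its highest WT library, while the range was 0.20 within WT and 0.20 within Slc6a4-/-. Its gap was 4.10 times the larger range, at place 5 of the 701 genes in either direction. The gap of Wdfy1 was 0.56, against a range of 0.09 within WT and 0.53 within Slc6a4-/-. That gap was 1.05 times the larger range, at place 50. Over the whole table the gap exceeded the larger range in 54 genes and was over 2 times that range in 12 genes. With other scalings, tried for this measure after the data had been seen, the place of Gabra2 was 4 (no scaling) and 7 (median of ratios over the table), and that of Wdfy1 was 79 and 64. Since the genes were chosen by this contrast, these places describe them and test nothing.

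**Figure D2:**
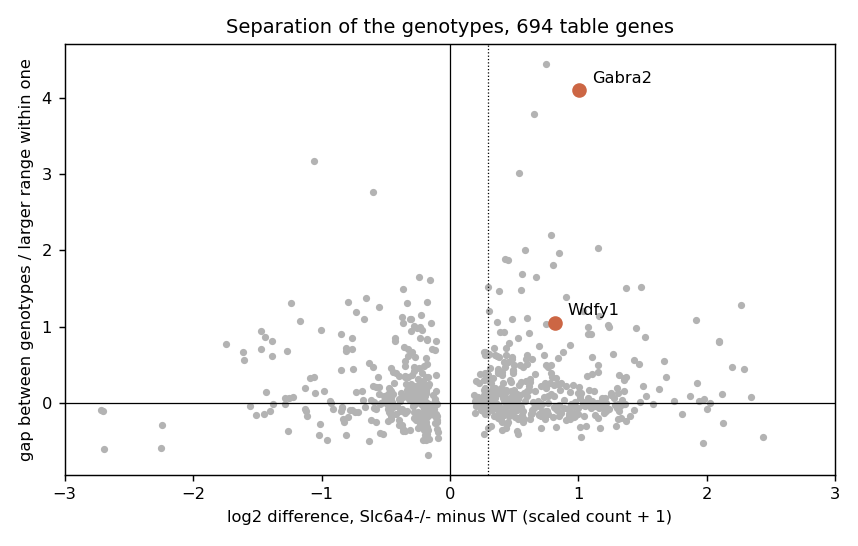
Gap between the genotypes divided by the larger range within a genotype (y axis, both on the log2 scale) against the log2 difference, Slc6a4-/- minus WT (x axis), for the 694 table genes with a difference of at most 3 either way. Each point is a gene, values above 0 on the y axis have no overlap, the dotted line is the table median of 0.30, and Gabra2 sits at 4.10 and Wdfy1 at 1.05.

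All mutant libraries lay above all WT libraries in both genes. The same held for 244 genes of the table, or 34.8%. A ratio of means over 1.5 in favour of Slc6a4-/- was found for both genes and for 30.5% of the table. In a limma fit across the 701 genes, with a call at an adjusted p below 0.05 and over 1.5-fold, 5 genes were called higher in Slc6a4-/- (0.713%) and 3 lower, together 1.14% of the table. Named after their values were seen, the 5 were Cdcp3, Gabra2, Gm3435, Gsta1 and Prss56, and the 3 were Slc6a4, Srp54a and Srp54b. Gabra2 was thus among the called genes and Wdfy1 was not. The adjustment here covers the 701 selected genes only. The study's own comparison started from a wider set of transcripts, and the study discusses Wdfy1 among its genes below an FDR of 0.05 and over 1.5-fold. Nothing is read from the counts of called genes for the 2 genes, which the same contrast had chosen. The calls moved with the settings: Gabra2 was called in 13 of 14 fits and Wdfy1 in 6 of 14.

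The difference also depended on the scale. With no scaling the log2 difference was 1.18 for Gabra2 and 0.99 for Wdfy1, and the median of the table was 0.48. With factors from the median of ratios over the table, the values were 0.85 and 0.66, and the median was 0.14. A scaling shifts all genes by about the same amount, so the distance from the table median, 0.71 for Gabra2 and 0.52 for Wdfy1, is the same under each by construction. The share of calls in favour of Slc6a4-/- was 62.5% with the recovered totals, 93.0% with no scaling and 42.9% with the median of ratios.

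**Figure D3:**
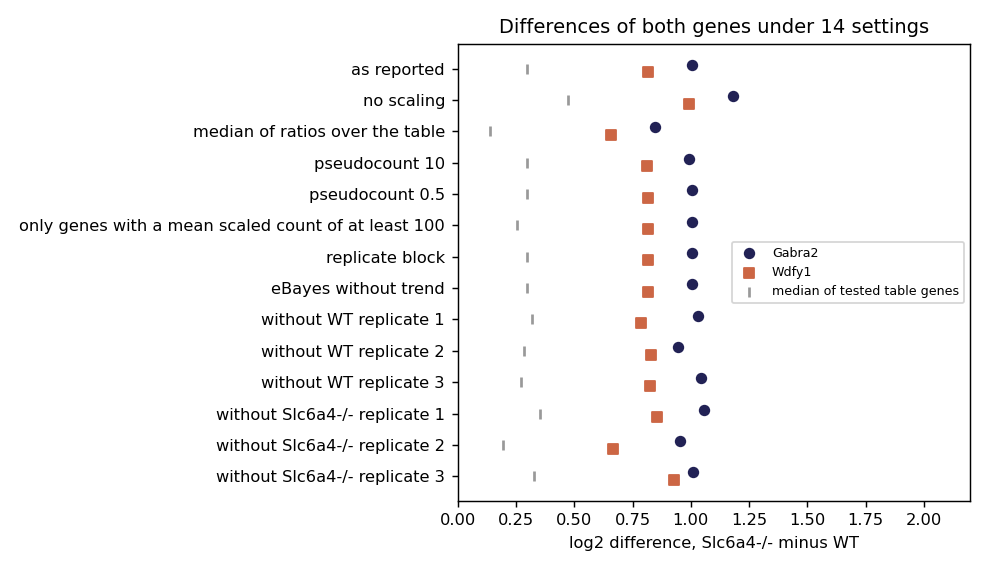
Log2 difference, Slc6a4-/- minus WT, of Gabra2 (circles) and Wdfy1 (squares) under 14 settings, with the median of all tested genes (grey bars). Gabra2 ran from 0.85 to 1.18 and Wdfy1 from 0.66 to 0.99, always above 0 and above the median.

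The ratio of Gabra2 to Wdfy1 within a library needs no scaling. It was 0.411, 0.343 and 0.395 in the WT libraries and 0.429, 0.380 and 0.507 in the Slc6a4-/- libraries. Mutant replicate 2 lay among the WT values, and mutant replicate 3 was the highest of all. The mean ratio of raw counts was 0.383 ± 0.036 in WT and 0.439 ± 0.064 in Slc6a4-/- (SD, n = 3 per genotype). On the log2 scale the genotypes differed by 0.19, within the spread of the libraries. In scaled counts the 2 genes did not keep one order across the mutant libraries. Scaled Gabra2 was highest in replicate 2 and lowest in replicate 1, whereas Wdfy1 was highest in replicate 2 and lowest in replicate 3. In raw counts both genes were highest in replicate 2 and lowest in replicate 3. The difference in order therefore depends on the scaling.

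None of the 701 genes lay within 1 Mb of Gabra2 or of Wdfy1, whereas 5 lay within 1 Mb of Slc6a4. The annotation places 3 further GABA-A subunit genes, Gabrg1, Gabra4 and Gabrb1, beside Gabra2, at 114980, 473900 and 562264 bases, and none of them was in the table. The nearest table genes on either side of Gabra2 were Kctd8, 1.62 Mb away, and Atp10d, 1.11 Mb away. Kctd8, an auxiliary subunit of GABA-B receptors, had a scaled count of 838 ± 49.3 in WT and 695 ± 38.8 in Slc6a4-/- (SD, n = 3 per genotype). Atp10d, a phospholipid flippase, had 195 ± 35.1 in WT and 276 ± 27.8 in Slc6a4-/- (SD, n = 3 per genotype). The next genes were Ociad2 at 2.23 Mb, with a log2 difference of 0.71 and overlapping groups, and Fam114a1 at 5.92 Mb, with 0.60. None of the 4 was called, beside 1.14% of the table.

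The nearest table genes to Wdfy1 were farther away. Cdk5r2 and Tns1 lay 4.84 and 5.58 Mb below it on chromosome 1, with log2 differences of -0.40 and 0.47. On the other side lay Pde6d at 6.77 Mb, a prenyl-binding protein of photoreceptors, with a log2 difference of -0.24. The serine protease gene Prss56, at 7.41 Mb, had a scaled count of 124 ± 32.7 in WT and 477 ± 150 in Slc6a4-/- (SD, n = 3 per genotype). It was the called one of these 4, beside 1.14% of the table. Within 10 Mb, 4 of 5 table genes around Gabra2 and 4 of 6 around Wdfy1 were higher in Slc6a4-/-, beside 11 of 15 around Slc6a4 and 397 of 701 in the whole table. The median log2 differences in these windows were 0.51, 0.47 and 0.27, beside 0.30 for the table. At its start Wdfy1 shares 126 bases with Mrpl44, which runs on the other strand, and its span also covers the 1791 bases of Gm10555 on the other strand. Neither was in the table. The libraries were stranded, but the strand setting of the counting is not given in the sources used here, so reads of these partners may be in the Wdfy1 counts.

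Among 514 table genes with a mean scaled count of at least 100, the 5 most like Gabra2 over the 6 libraries were Rec8, Aox1, Vps53, Pld5 and Gm3435, with Pearson r from 0.978 to 0.995 on log2 scaled counts. Rec8, a meiotic cohesin subunit, had 172 ± 9.06 in WT and 288 ± 11.2 in Slc6a4-/- (SD, n = 3 per genotype). Vps53, a subunit of a Golgi tethering complex, had r = 0.988 with a log2 difference of only 0.29. It lies on chromosome 11, from 76046226 to 76179647, and is among the 5 table genes within 1 Mb of Slc6a4. The genes most like Wdfy1 were Acacb, Arhgap29, Pld5, Naa10 and Acaa2, with r from 0.973 to 0.991. Acacb, the mitochondrial acetyl-CoA carboxylase, had 94.5 ± 5.54 in WT and 145 ± 25.7 in Slc6a4-/- (SD, n = 3 per genotype), and like Wdfy1 it was more spread in the mutants. Only Pld5 was in both sets. These r rest on 2 clusters of 3 libraries in a table chosen for a genotype difference, so high values are common. In all, 36 genes had r over 0.9 with Gabra2 and 46 with Wdfy1. Between Gabra2 and Wdfy1 r was 0.945, and after removing each genotype's mean it was 0.438 over the same 6 libraries. Acacb and Wdfy1 had r = 0.966 after that removal, and Rec8 and Gabra2 had 0.816.

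Of 41 other GABA genes listed, covering receptor subunits, synthesis, transport and synapse scaffolds, 4 were in the table and none of these was a receptor subunit. Abat, which breaks down GABA, had a scaled count of 3093 ± 234 in WT and 3539 ± 177 in Slc6a4-/- (SD, n = 3 per genotype). The vesicular transporter gene Slc32a1 had 1059 ± 64.0 in WT and 907 ± 157 in Slc6a4-/- (SD, n = 3 per genotype). The plasma membrane transporter genes Slc6a12 and Slc6a13 had log2 differences of 0.50 and 1.24, with overlapping groups. For Slc6a13 the WT libraries alone ran from 164 to 1057 scaled counts, with WT replicate 1 the highest. In the limma fit 0 of the 4 were called, beside 1.14% of the table, and 0 had an unadjusted p below 0.05, beside 45.6% (320 of 701 genes). Their median log2 difference was 0.35, beside 0.30 for the table. Genes of the list outside the table were not analysed here.

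Of 26 other genes listed around Wdfy1, namely its family, the endosomal Toll-like receptor pathway and PI3P binding, Irf3 was the single one in the table. Irf3, the transcription factor activated downstream of TRIF, had scaled counts of 757, 773 and 686 in WT and 986, 1161 and 1115 in Slc6a4-/-. The groups did not overlap, the log2 difference was 0.56 with a standard error of 0.11, and the gene was not called by limma. Its unadjusted p was below 0.05.

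The interferon response genes, which Toll-like receptor and TRIF signalling can induce, were better represented, with 11 of 24 in the table. All 11 had higher means in Slc6a4-/-, with a median log2 difference of 0.77, and the groups did not overlap in 10 of them. Slc6a4-/- lay wholly above WT in 34.8% of the table, which the authors had selected on this contrast. None of the 11 was called by limma, beside 1.14% of the table, while 10 had an unadjusted p below 0.05, beside 45.6%. Rsad2, an antiviral enzyme, had 39.1 ± 5.08 in WT and 84.2 ± 17.3 in Slc6a4-/- (SD, n = 3 per genotype). Oas2, which makes the activator of RNase L, had 2.12 ± 1.04 in WT and 12.7 ± 6.12 in Slc6a4-/- (SD, n = 3 per genotype). The summed scaled count of the 11 ran from 1428 to 1650 in WT and from 2209 to 2575 in Slc6a4-/-. Mutant replicate 2, where Wdfy1 was highest, had the highest B2m count, at 656, while the Rsad2 count was highest in mutant replicate 3, at 98.0. The part of either gene in the interferon genes was not tested.

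Of 7 other genes listed as known to differ between C57BL/6 substrains or between inbred strains, Crb1 was the one in the table. Crb1 encodes a polarity protein of photoreceptors and Mueller glia, and C57BL/6N mice are known to carry its rd8 mutation. It had scaled counts of 16665, 17234 and 18432 in WT and 5970, 7671 and 12807 in Slc6a4-/-. The groups did not overlap and the difference was -1.06 on the log2 scale with a standard error of 0.26, but limma did not call it. Its unadjusted p was below 0.05. Within the mutants, the highest library and the lowest were far apart.

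**Figure D4:**
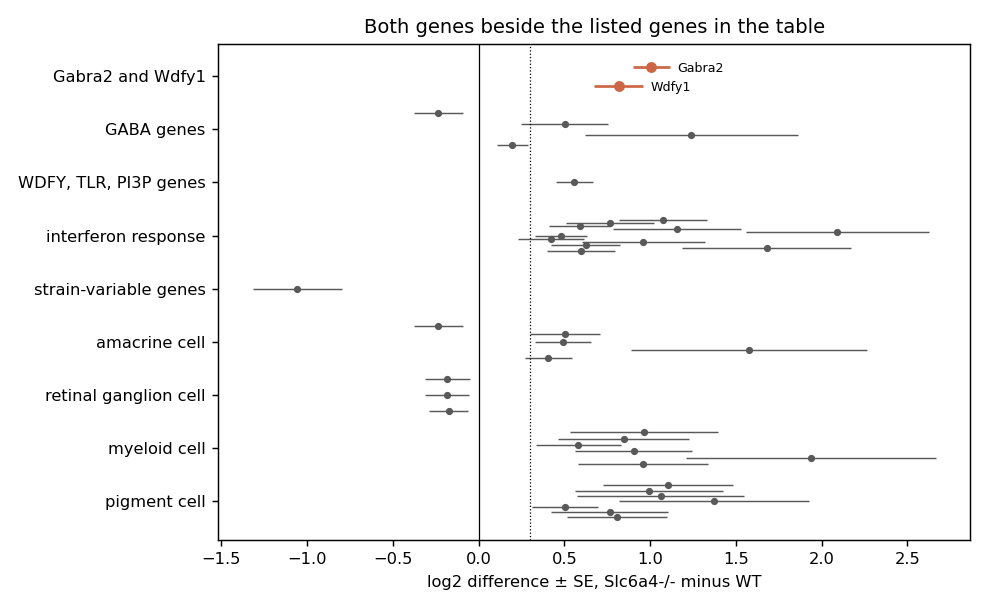
Log2 difference with its standard error, Slc6a4-/- minus WT, of Gabra2 and Wdfy1 (top) and of the genes of 8 lists that are in the table. The solid line is 0 and the dotted line the table median of 0.30; Gabra2 is at 1.01 and Wdfy1 at 0.82, the 11 interferon genes all lie above 0 and Crb1, the strain-variable gene, is at -1.06.

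In bulk tissue, fewer cells of a type and less RNA per cell cannot be told apart, so marker levels are given beside both genes. Retina markers were present, with 7 of 17 listed photoreceptor, bipolar and Mueller genes in the table and a summed scaled count from 39926 to 49890 in WT and from 35983 to 51552 in Slc6a4-/-. Of these 7, 5 had lower means in Slc6a4-/- and 2 had higher means. Opn1sw averaged 11536 in WT and 4890 in Slc6a4-/-, and Gngt1 averaged 19188 and 24291. Opn1sw alone ran from 5700 to 16648 among the WT libraries. Of 14 retinal ganglion cell markers 3 were in the table (Nefl, Ebf1 and Ebf3), and their sum ran from 12210 to 14364 in WT and from 10185 to 13102 in Slc6a4-/-. The ranges of the sums of both lists overlapped between genotypes. Of 15 amacrine cell markers 5 were in the table, with a sum from 2300 to 3600 in WT and from 3863 to 4491 in Slc6a4-/-. These markers did not share a direction: 4 had higher means in Slc6a4-/-, while Slc32a1 was lower, at 907 beside 1059 in WT. Penk averaged 816 in WT and 1848 in Slc6a4-/-, and alone ran from 197 to 1530 among the WT libraries. The 2 Mueller glia markers in the table, Gfap and Aldh1a1, of 8 listed, summed to between 3255 and 5300 in WT and to between 4037 and 6913 in Slc6a4-/-. They did not share a direction. Gfap averaged 1833 in WT and 1391 in Slc6a4-/-, without overlap, whereas Aldh1a1 averaged 2210 and 3847, with overlapping groups.

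Of 3 further lists of cell markers, myeloid and pigment cell markers had higher means in Slc6a4-/-, like both genes, and gland markers had lower means. Of 12 myeloid markers 6 were in the table, all with higher means in Slc6a4-/-, and their sum ran from 181 to 361 in WT and from 374 to 536 in Slc6a4-/-. Of 12 pigment cell markers 7 were in the table, all with higher means in the mutants, and the sums, from 1278 to 3016 and from 2777 to 4678, overlapped. The 7 markers of nasal and orbital glands were all lower in the mutants, with sums from 112 to 291 in WT and from 54.1 to 89.0 in Slc6a4-/-. No marker in the table was at 0 in all libraries. Of these marker lists 0 genes were called by limma, beside 1.14% of the table. Still, 3 myeloid, 4 pigment cell and 5 gland markers had an unadjusted p below 0.05, beside 45.6% of all table genes. So did 1 photoreceptor or bipolar, 3 amacrine, 2 Mueller glia and 0 ganglion cell markers. Among the WT libraries the sums of the marker lists differed from 1.18-fold (ganglion cell) and 1.25-fold (retina) up to 2.59-fold (gland). Gabra2 differed 1.15-fold and Wdfy1 1.06-fold. The part of other cells in the difference of Gabra2 and Wdfy1 was not tested.

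Against the 3 ganglion cell markers in the same library, the differences were 1.19 for Gabra2 and 1.00 for Wdfy1 on the log2 scale, larger than the 1.01 and 0.82 against the library totals. All 3 markers had lower means in Slc6a4-/-, with a median log2 difference of -0.18 and overlapping groups. The log2 ratio of Gabra2 to the mean log2 count of these markers was -1.75 ± 0.05 in WT and -0.56 ± 0.05 in Slc6a4-/- (SD, n = 3 per genotype). For Wdfy1 it was -0.36 ± 0.09 in WT and 0.64 ± 0.22 in Slc6a4-/- (SD, n = 3 per genotype). Against the 5 amacrine markers, the log2 ratio of Gabra2 was 0.23 ± 0.34 in WT and 0.69 ± 0.05 in Slc6a4-/- (SD, n = 3 per genotype), and that of Wdfy1 was 1.62 ± 0.36 in WT and 1.89 ± 0.18 in Slc6a4-/- (SD, n = 3 per genotype), with overlapping groups for Wdfy1. These marker genes were themselves in the table because they differed between the genotypes, so the ratios are descriptions that depend on that choice.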

How the data were processed

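Total RNA of the pooled retinae was made into stranded libraries with reduced ribosomal RNA and sequenced as paired reads. The authors aligned the reads to GRCm38 and counted them per gene in CLC Genomics Workbench; the counter's settings are not given in the sources used here. The deposited table holds raw counts per gene, written with digit separators that were removed, for 701 genes (25 blank lines were skipped). A further column deposited by the authors was read as mean RPKM, given for whichever genotype was higher. Columns of their own comparison, holding fold changes and p-values, were not used. Of the columns of per-sample values, 0 were left unused.

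Because the table is a selection, its sums are not the depth. Library totals were recovered by a linear fit within each genotype of mean RPKM times exon length (GENCODE M21) on the raw counts, with standard errors from 0.137% to 0.222% (largest residual 0.191%). The fit kept 63 of 125 genes tried for WT and 62 of 165 for Slc6a4-/-. Genes were dropped in steps down to a tolerance of 0.5%, so small residuals and standard errors follow in part from that choice. On data simulated for the 3 WT libraries, with 264 genes, the largest error of a recovered total was 0.0909%. It was not run for the Slc6a4-/- libraries, where more of the genes tried were dropped. All 701 identifiers had a position.

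limma 3.58.1 (R 4.3.3; lmFit, eBayes with trend) was run on log2(scaled count + 1) over the 701 genes, with Benjamini-Hochberg adjustment. For this comparison simulated with 200 genes changed 2-fold among 701, 181 (90.5%) were recovered with 1 false call. The simulation gave every gene the same spread beyond counting error. Some table genes spread far wider, such as Penk with a coefficient of variation of 82.2% in WT. These rates therefore do not carry over to such genes. A count test was not run. That choice followed from how the counts are written, with digit separators, and not from their values. Pools named as replicates carry no statement on separate litters or days, so errors are the spread between these pools.

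The members and all lists were chosen with earlier results of these data known. Genes named are both members, Slc6a4, list genes in the table, the 5 genes most like each member, the nearest 2 table genes on each side, and those said to be named after their values were seen. Alternatives were the scaling, pseudocounts of 10 and 0.5, a minimum mean scaled count of 100, eBayes without trend, a replicate block and leaving out each library.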

Additional observations from a re-analysis of the deposited data

How the results depend on the processing

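Both genes were higher in Slc6a4-/- under all 13 alternatives. The log2 difference of Gabra2 moved from 1.01 to 1.18 with no scaling and to 0.85 with the median of ratios, and leaving out each library gave 0.94 to 1.06. For Wdfy1 leaving out each library gave 0.66 to 0.93, the lowest without Slc6a4-/- replicate 2. The difference in the log2 ratio of Gabra2 to Wdfy1 was 0.19, and 0.08 to 0.29 with each library left out.

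The number of table genes called, 8, was the least stable value: 114 with no scaling, 41 without the trend, and 4 to 158 when each library was left out. It was 158 without WT replicate 1, 4 without WT replicate 2, 5 without Slc6a4-/- replicate 2 and 17 without Slc6a4-/- replicate 3; the cause was not tested. Without WT replicate 2 neither Gabra2 nor Wdfy1 was called.

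With the replicate block, 15 genes were called, Wdfy1 among them. The log2 differences stayed 1.01 and 0.82, and the ratio 0.19. Deviations of same-numbered libraries had Pearson r of 0.43, -0.18 and 0.21 across 514 genes. For libraries of unlike number r ran from -0.40 to 0.12. Whether the numbers pair the libraries was not tested.

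With 3 pools per genotype, genes the authors did not select absent from the table and no allele calls, these data do not separate line of origin from transporter loss.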
